A study of Mus musculus with 2 samples.

Results

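The 10 genes described here, Klf2, Klf3, Klf4, Klf6, Klf7, Klf9, Klf10, Klf11, Klf13 and Klf16, encode Krüppel-like factors and were taken by gene symbol from 55536 annotated gene rows. The choice used no measured value of these libraries in its rule, though it was made with results of the same libraries known. The data are ribosome-depleted RNA-seq of nuclear RNA from mouse bone marrow-derived macrophages, primary phagocytes grown out from bone marrow of the strain C57BL/6J. The single group holds 2 libraries, and all of its cells were given Lipid A, the part of endotoxin that activates the receptor TLR4, at 100 ng/ml for 12 h. They then spent 12 h without it and received 100 ng/ml again for 60 min. Replicate 1 was made from 1 µg of RNA and replicate 2 from 500 ng. The labels name the fraction nuclear in some fields and nucleoplasmic in another, give both libraries the same donor identifier and record neither sex nor age. No label states that they stem from different animals, and their spread may therefore be technical. Untreated cells and cells stimulated a single time were not analysed here, so the levels below carry no measure of a Lipid A response.

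Krüppel-like factors are transcription factors that bind GC-rich and CACCC elements through zinc fingers at the end of the protein. They differ in the partners that the rest of the protein recruits. Klf2, Klf4, Klf6 and Klf7 belong to the branch known for binding acetyltransferases, Klf3 to the branch that recruits the corepressor CtBP, and Klf9, Klf10, Klf11, Klf13 and Klf16 to the branch that binds the Sin3A corepressor. In macrophages Klf2 and Klf4 are known as restraints on inflammatory activation, while Klf6 is known as a partner of NF-kB at inflammatory genes.

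Promoter sequences are shown because the family binds the GC box, which lets the letters of its own promoters be set beside those of all others. The RefSeq promoter table, on the build GRCm38.p6, held 8 of the 10 members in windows of 250 bases before to 50 bases after the start. Klf10 and Klf16 had no entry. The GC box GGGCGG, read on both strands, was found in 7 of the 8 windows, against 35.7% of the 32851 windows of the table. Klf3 held 6 matches, Klf4 and Klf11 4 each, Klf13 3, Klf2 2, and Klf6 and Klf7 1 each. Klf9 had none in its window. The upstream bases that lie outside annotated exons are printed 5′ to 3′ on the gene's strand, with GC boxes in capitals.
Klf6 (chr13:5861239-5861481, plus strand): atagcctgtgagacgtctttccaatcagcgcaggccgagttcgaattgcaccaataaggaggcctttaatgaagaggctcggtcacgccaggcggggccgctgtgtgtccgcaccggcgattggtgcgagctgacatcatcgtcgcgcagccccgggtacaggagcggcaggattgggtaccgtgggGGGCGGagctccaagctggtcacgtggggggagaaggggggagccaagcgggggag
Klf3 (chr5:64803271-64803387, plus strand): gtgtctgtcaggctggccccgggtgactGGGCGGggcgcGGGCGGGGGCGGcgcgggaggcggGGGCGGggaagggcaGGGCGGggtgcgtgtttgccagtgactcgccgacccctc
Klf2 (chr8:72318812-72319032, plus strand): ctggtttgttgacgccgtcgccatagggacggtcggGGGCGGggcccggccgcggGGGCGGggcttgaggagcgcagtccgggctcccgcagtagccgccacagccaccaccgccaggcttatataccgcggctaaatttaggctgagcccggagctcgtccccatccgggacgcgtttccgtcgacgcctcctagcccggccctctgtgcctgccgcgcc
Klf4 (chr4:55532476-55532725, minus strand): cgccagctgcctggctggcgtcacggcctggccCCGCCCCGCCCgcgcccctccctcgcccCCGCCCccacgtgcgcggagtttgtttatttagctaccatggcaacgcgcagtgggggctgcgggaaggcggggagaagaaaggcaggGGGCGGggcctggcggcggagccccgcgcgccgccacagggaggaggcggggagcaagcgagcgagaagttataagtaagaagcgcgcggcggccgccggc
Klf9 (chr19:23140976-23141225, plus strand): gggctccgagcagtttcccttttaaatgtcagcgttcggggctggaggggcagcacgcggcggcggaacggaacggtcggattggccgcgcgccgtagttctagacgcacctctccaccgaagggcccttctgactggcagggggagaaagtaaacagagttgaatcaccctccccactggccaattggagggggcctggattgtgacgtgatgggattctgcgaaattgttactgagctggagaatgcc
The printed Klf3 stretch holds 5 of its 6 GC boxes, the 4 of Klf4 include boxes read on the other strand as CCGCCC, the box of Klf6 begins 63 bases before the RefSeq start, and the Klf9 stretch has no capitals. The short site TGACG, which is part of the cyclic AMP response element, was present in the windows of Klf2, Klf3, Klf4, Klf9 and Klf13, which is 5 of 8, against 20.8% of all windows. The CACCC element CCACACCC (3.56% of all windows), the full element TGACGTCA (1.79%), the MEF2 site CTATTTATA (0.429%), the CArG box (1.63%), the NF-kB site (8.46%) and TATAAA (13.6%) had no match in the 8 windows. The GC content of the 8 windows lay between 58.3% and 77.7%. Motif matches describe the letters of a window and not binding.

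In the gene tables Klf6 stood far above the other members in both libraries. Levels are TPM, a length-corrected share of all transcripts in a library, so that different genes can be compared. Klf6, an immediate early gene of many cell types (ENSMUSG00000000078.7, chromosome 13, 5861482 to 5870394, plus strand), had 323 TPM in replicate 1 and 228 in replicate 2, with a mean of 275 ± 67.5 TPM (SD, n = 2). These levels rest on 30121 and 20628 expected counts, the estimates that divide reads among transcripts. Both libraries placed it at percentile 99.5 of 22015 protein-coding genes of the nuclear genome. It held 75.7% of the summed TPM of the 10 members in replicate 1 and 70.2% in replicate 2. With the second quantifier, described below, this share was 53.6% in replicate 1 and 54.6% in replicate 2. There Klf6 had 135 and 161 TPM, and Klf10 came next with 69.4 and 63.4 TPM. The deposited TPM of Klf6 lay above its own deposited interval, 304 to 316 TPM in replicate 1 and 214 to 222 TPM in replicate 2, whose level is not stated in the sources used here.

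Among the other acetyltransferase-binding members, Klf7 was in the upper part of the range and Klf2 and Klf4 were in the lower part. Klf7, known from neuron development and adipocyte precursors (ENSMUSG00000025959.13, chromosome 1, 64029447 to 64122282, minus strand), had 27.6 TPM in replicate 1 and 23.7 in replicate 2 (mean 25.6 ± 2.76 TPM; SD, n = 2). Klf2, which keeps endothelial and myeloid cells quiescent (ENSMUSG00000055148.7, chromosome 8, 72319033 to 72321656, plus strand), had 5.84 and 4.26 TPM in replicates 1 and 2 (mean 5.05 ± 1.12 TPM; SD, n = 2). Klf4, a pluripotency factor that also drives monocyte differentiation (ENSMUSG00000003032.8, chromosome 4, 55527143 to 55532466, minus strand), had 0.510 TPM in replicate 1 and 0.730 in replicate 2. The Klf4 values rest on 38 and 27 expected counts and stayed below 1 TPM in both libraries. The deposited intervals of Klf4 reach 1.10 TPM in replicate 1 and 1.63 in replicate 2. In bulk RNA a smaller number of cells of a type and less RNA per cell cannot be told apart.

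Klf3, which recruits CtBP and silences its targets (ENSMUSG00000029178.14, chromosome 5, 64803388 to 64832901, plus strand), was the next member after Klf6 in the gene tables. It had 43.9 TPM in replicate 1 and 49.3 in replicate 2 (mean 46.6 ± 3.83 TPM; SD, n = 2), from 4412 and 4209 expected counts. Klf3, Klf4 and Klf16 were the members with the higher TPM in replicate 2. For Klf4, 0.360 of the 0.730 TPM in replicate 2 lay on Klf4-202, a transcript of 522 bases with 2.57 expected counts. The main transcript Klf4-201 had 0.510 TPM in replicate 1 and 0.370 in replicate 2.

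The Sin3A-binding members ran from 18.03 TPM down to 0.220 TPM. Klf13, known in human T cells as an activator of the chemokine gene CCL5 (ENSMUSG00000052040.10, chromosome 7, 63886351 to 63938915, minus strand), had 18.03 TPM in replicate 1 and 13.2 in replicate 2 (mean 15.6 ± 3.44 TPM; SD, n = 2). Klf10, induced early by TGF-beta (ENSMUSG00000037465.10, chromosome 15, 38291463 to 38300706, minus strand), had 6.29 and 4.12 TPM in replicates 1 and 2 (mean 5.21 ± 1.53 TPM; SD, n = 2). Its relative Klf11, also inducible by TGF-beta (ENSMUSG00000020653.12, chromosome 12, 24651274 to 24662789, plus strand), had 0.420 TPM in replicate 1 and 0.310 in replicate 2. Klf13 and Klf10 thus passed 1 TPM and Klf11 did not. The deposited intervals of Klf11, 0.414 to 1.35 TPM in replicate 1 and 0.311 to 1.35 in replicate 2, reach above 1 TPM. Klf16, a repressor known from brain (ENSMUSG00000035397.8, chromosome 10, 80567124 to 80577321, minus strand), had 0.660 and 0.760 TPM. Klf9, a target of glucocorticoid and thyroid hormone receptors (ENSMUSG00000033863.2, chromosome 19, 23141226 to 23168134, plus strand), had 0.270 and 0.220 TPM and was the lowest member in both libraries. Klf9, Klf11 and Klf16 rest on 22 to 44 expected counts a library.

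Of the 10 members, 6 reached 1 TPM in both libraries, against 39.9% of nuclear protein-coding genes. For 10 TPM the count was 4, against 14.8%, and for 100 TPM it was 1, against 1.37%. The median of the members was 6.07 TPM in replicate 1 and 4.19 in replicate 2, and that of all nuclear protein-coding genes was 0.280 and 0.210 TPM. In the order by mean TPM, Klf6, Klf3, Klf7, Klf13, Klf10, Klf2, Klf16, Klf4, Klf11 and Klf9, neighbours were called apart where their log2 difference had the same sign in both libraries and a mean above its SD. By this rule 7 of the 9 neighbouring pairs were apart. These include Klf4 over Klf11, 1.21-fold in replicate 1 and 2.35-fold in replicate 2. The second quantifier, described below, reversed this pair, with Klf11 at 0.499 and 0.867 TPM and Klf4 at 0.273 and 0.284 TPM. It also put Klf10 above Klf13 in both libraries. Klf6 was 7.37-fold above Klf3 in replicate 1 and 4.62-fold in replicate 2. Klf2 was 8.85-fold above Klf16 in replicate 1 and 5.61-fold in replicate 2, which was the largest step between neighbours in both libraries. Klf10 and Klf2 were not apart, since Klf10 was 1.08-fold Klf2 in replicate 1 and 0.967-fold in replicate 2, and neither were Klf16 and Klf4.

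**Figure D1:**
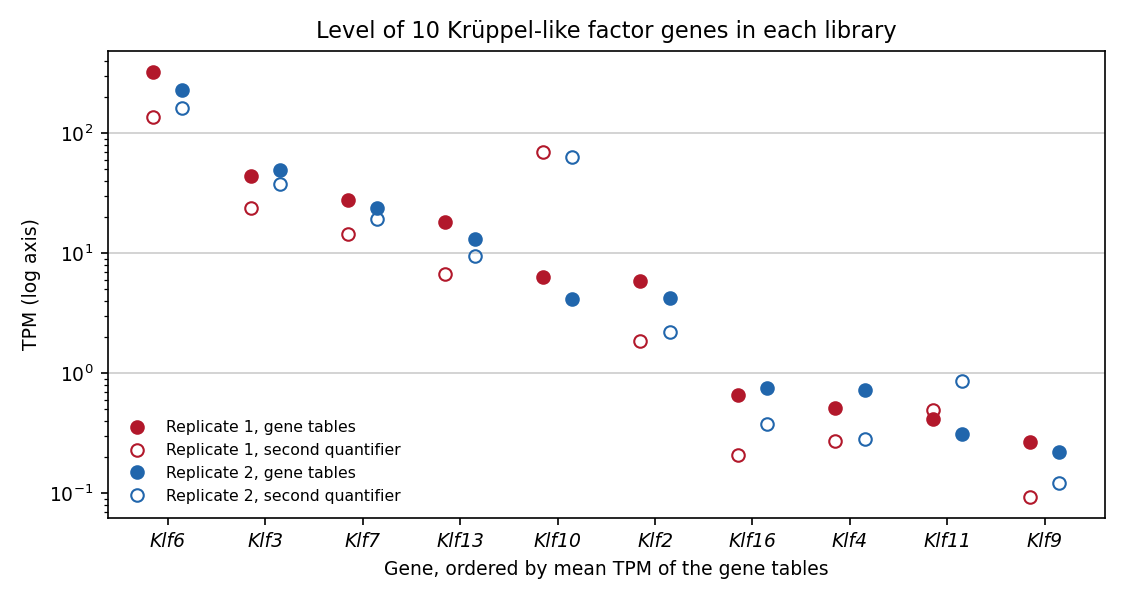
Each point is the TPM (log axis) of 1 gene in 1 library, red for replicate 1 and blue for replicate 2, filled for the gene tables and open for the second quantifier. Klf6 lies highest with both quantifiers, and the open points of Klf10 (69.4 and 63.4 TPM) lie far above its filled points (6.29 and 4.12 TPM).

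The authors also deposited transcript levels from a second quantifier, which assigns reads to transcripts without the alignments behind the gene tables. The gene tables put 28.1% of TPM in replicate 1 and 18.8% in replicate 2 on nuclear protein-coding genes, and the second quantifier put 10.9% and 13.4% there. The members were therefore compared after scaling these genes to the same total. On that scale the second quantifier gave 0.546 to 1.40 times the gene-table level for 8 members in both libraries. Klf10 was 28.4 times its gene-table level in replicate 1 and 21.6 times in replicate 2. In counts, which are not divided by length, Klf10 was 3.21 and 3.68 times its gene-table value. The second quantifier gave it 1338 and 953 estimated counts, beside 417 and 259 expected counts in the gene tables. Klf11 was 3.06 and 3.92 times its gene-table level, with 170 and 197 estimated counts in the second quantifier beside 43 and 28 expected counts in the gene tables.

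The Klf10 difference sits on 1 short transcript. Klf10-204, annotated as protein coding and 326 bases long, has 1 expected count in replicate 1 and 0 in replicate 2 in the transcript tables. The second quantifier gave it 854 and 566 estimated counts, which is 66.7 of the 69.4 TPM of the gene in replicate 1 and 60.4 of 63.4 TPM in replicate 2. Without Klf10-204, a setting chosen after the values were seen, the second quantifier gave Klf10 2.61 TPM in replicate 1 and 3.08 in replicate 2. With nuclear protein-coding genes scaled to the same total, these became 23.9 and 23.0, against 22.4 and 21.9 in the gene tables. Klf10-204 shares the opening exon of Klf10-201 and then uses exons inside intron 1 of that transcript. Its own coding exon of 151 bases is shown from the GENCODE M21 transcripts (mm10), with its run of 33 adenines in capitals.
Klf10-204 (chr15:38300267-38300417, minus strand): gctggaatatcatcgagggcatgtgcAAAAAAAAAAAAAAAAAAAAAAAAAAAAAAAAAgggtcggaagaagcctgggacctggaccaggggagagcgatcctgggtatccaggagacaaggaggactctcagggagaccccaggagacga
Of the 296 words of 31 bases in Klf10-204, 15 also occur in transcripts of 210 other genes, whereas Klf10-201 and Klf10-202 hold 0 such words. Apart from Klf10-204, the gene's counts were assigned mainly to Klf10-201 and Klf10-202. Klf10-201 had 2.99 and 2.54 TPM in replicates 1 and 2, and Klf10-202 had 2.66 and 1.36 TPM. Whether the adenine run moves the counts was not tested.

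**Figure D2:**
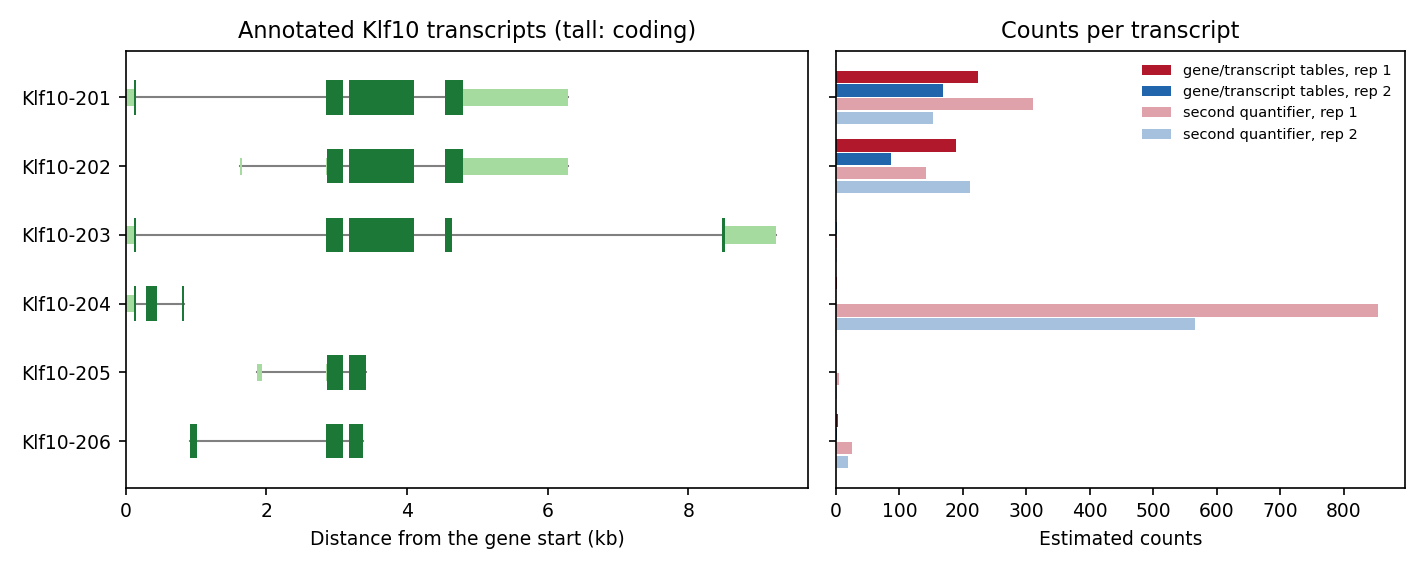
The left panel maps the 6 annotated Klf10 transcripts by distance from the gene start in kb (tall boxes coding, low boxes other exon parts), and the right panel gives estimated counts per transcript, red for replicate 1 and blue for replicate 2, dark for the transcript tables and pale for the second quantifier. Klf10-204 has 1 and 0 counts in dark bars, against 854 and 566 in pale bars.

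A large part of the Klf3 TPM was assigned to transcripts annotated as retained introns, in which an intron stays in the RNA. Nuclear RNA also holds RNA that is not yet spliced. Whether the reads assigned to retained-intron transcripts of Klf3, Klf13 and Klf6 stem from such RNA was not tested. Such transcripts held 47.3% of its TPM in replicate 1 and 54.5% in replicate 2. Among 5643 nuclear protein-coding genes at 1 TPM or more that have an annotated retained-intron transcript, the medians were 20.2% and 23.1%, and Klf3 lay at percentiles 87.5 and 88.2. Klf3-204 had 10.8 TPM in replicate 1 and 12.5 in replicate 2, and Klf3-203 had 9.92 and 14.3 TPM. Klf3-204 runs on into the intron after the exon that holds the Klf3 start codon, and Klf3-203 begins in the intron before that exon and runs on into an intron farther down. The coding transcript Klf3-201 had 20.3 and 18.2 TPM, or 46.2% and 36.8% of the gene. With expected counts in place of TPM, the retained-intron share of Klf3 was 38.9% in replicate 1, with a 95% Wilson interval of 37.5 to 40.4, and 48.3% in replicate 2, with an interval of 46.8 to 49.8. These intervals cover counting error only and treat expected counts as independent draws. They leave out the error of dividing reads among transcripts. The reads carry no molecular identifiers, so reads and not molecules were counted. From the second quantifier the TPM share was 28.3% in replicate 1 and 41.5% in replicate 2, so replicate 2 was above replicate 1 by each of these 3 measures.

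Klf13 and Klf6 also have 1 retained-intron transcript each. Klf13-203 held 26.4% of the TPM of Klf13 in replicate 1 and 34.6% in replicate 2, but only 4.08% and 6.28% of its expected counts. It is 934 bases long, against 6396 for the main transcript Klf13-201. Klf6-202 had 42.6 TPM in replicate 1 and 9.29 in replicate 2, from 663 and 127 expected counts, which is 13.2% and 4.08% of the TPM of Klf6. The main coding transcript Klf6-201 held 86.1% of the TPM in replicate 1 and 94.9% in replicate 2, and 97.6% and 99.1% of the expected counts. A share of 20% or more in both libraries was found for 2 of these 3 members, Klf3 and Klf13, against 45.1% of the 5643 genes. The longest stretch that sets Klf6-202 apart from other Klf6 transcripts, 90 bases, is the end of intron 1 of Klf6-201, next to the exon that follows it, and is shown with their run of 16 thymines in capitals.
Klf6-202 (chr13:5864678-5864767, plus strand): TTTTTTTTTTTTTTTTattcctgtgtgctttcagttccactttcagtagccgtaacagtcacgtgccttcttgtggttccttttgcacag
The remaining sequence of Klf6-202 is largely shared with Klf6-201, and the second quantifier gave Klf6-202 35.0 TPM in replicate 1 and 26.2 in replicate 2.

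**Figure D3:**
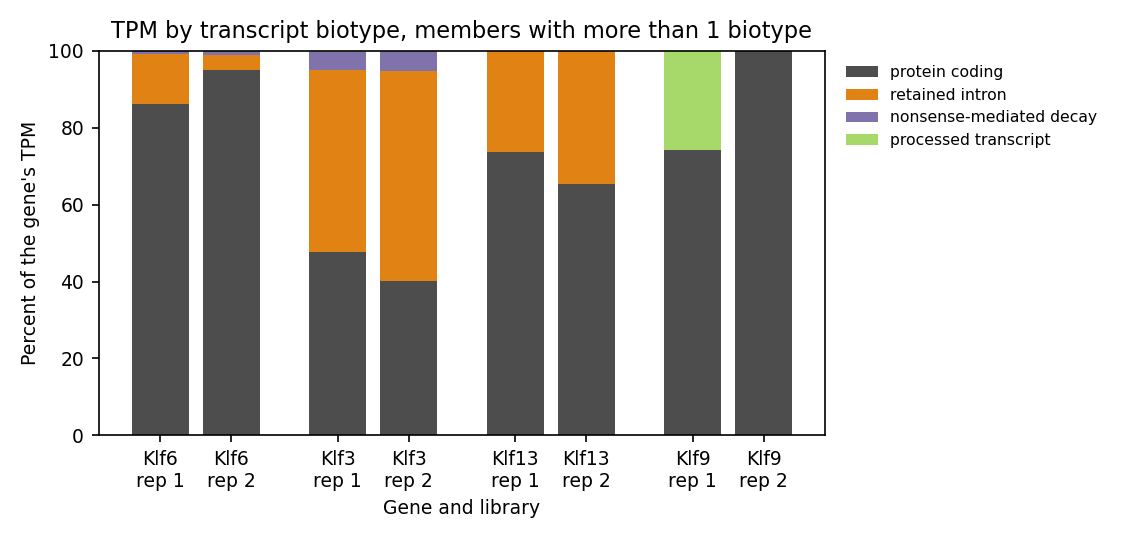
Stacked bars give the percent of each gene's TPM by transcript biotype in replicate 1 and replicate 2, for the 4 members with more than 1 biotype. The retained-intron part is largest in Klf3 (47.3% and 54.5%), and the processed-transcript part of Klf9 in replicate 1 rests on 1.71 expected counts.

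The other members lay on coding transcripts only, apart from Klf9-202 with 1.71 expected counts in replicate 1. Klf7-202, which has a 3′ untranslated region of 6266 bases, held 65.5% of the TPM of Klf7 in replicate 1 and 82.7% in replicate 2. The short Klf7-203 had 3.05 TPM in replicate 1 and 0.260 in replicate 2, from 27.7 and 2.06 expected counts. Klf2 and Klf16 have 1 annotated transcript each.

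Neighbouring genes can exchange reads with some members, since whether strand was used is not given in the sources used here. In the annotation 8 other genes overlap Klf3, Klf7, Klf9 or Klf13. Klf7 is most exposed, because 41.2% of the 31-base words of Klf7-202 also occur in other genes, foremost Gm26649 on the other strand, which had 0.320 TPM in replicate 1 and 0.620 in replicate 2. The antisense gene Gm13748, also over Klf7, had 1.76 and 0 TPM in the gene tables but 15.95 and 17.52 TPM in the second quantifier. Klf3 shares 5.13% of its words, mostly with the antisense gene Gm20033 (1.71 and 1.98 TPM). C230096K16Rik, on the strand of Klf3 and inside intron 1 of Klf3-201, had 19.7 TPM in replicate 1 and 19.1 in replicate 2, and it shares 0 exonic bases with any Klf3 transcript. Over Klf13, on the other strand, E030018B13Rik had 1.36 and 1.22 TPM and Gm27252 had 0.550 and 0.0900 TPM. The microRNA genes Mir6899 in Klf7 and Mir1192 in Klf9 had 0 counts in both gene tables. Klf2, Klf6, Klf9 and Klf16 share 0 words with other genes. Reads of a gene and its antisense partner cannot be told apart without strand.

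The replicates were set side by side with TMM-normalised counts, as log2 ratios of replicate 1 over replicate 2. Of the 10 members, 0 were over 2-fold apart, against 8.6% of the 14052 genes that averaged at least 10 expected counts. With 1 group there is no test of a condition, and the ratios describe the spread of these libraries. The median absolute log2 ratio was 0.18 over the members and 0.30 over all genes. Klf16 lay farthest apart at -0.64, followed by Klf3 at -0.54 and Klf7 at -0.52, all lower in replicate 1. Klf6 was at -0.07 and Klf13 at 0.25. The counting intervals of Klf3 (-0.61 to -0.48), Klf7 (-0.59 to -0.46), Klf6, Klf13 and Klf16 did not include 0. They were wide for Klf16 (-1.245 to -0.032), Klf4 (-0.83 to 0.59), Klf9 (-1.31 to 0.36) and Klf11 (-0.68 to 0.69). The interval of Klf16 holds the ratios of Klf3 and Klf7, so the order of Klf16 against them is not settled. The direction depends on the scale. TPM is shifted by 0.47 on the log2 scale for the median nuclear protein-coding gene, replicate 1 over replicate 2. On the deposited TPM the ratio of Klf7 was 0.22, that of Klf6 0.51 and that of Klf9 0.30, all with the opposite sign, while Klf3 (-0.17), Klf4 (-0.52) and Klf16 (-0.20) stayed negative. On the TPM scaled to nuclear protein-coding genes Klf13 was at -0.13. The counts of the second quantifier gave Klf3 -0.40 and Klf7 -0.38, and put Klf4 (0.23) and Klf6 (0.09) above 0 and Klf11 (-0.32) below it. Of the members with more than 100 expected counts in each library, Klf3 alone kept a negative sign on all 4 of these scales. The common biological coefficient of variation, as edgeR names it, was 22.7% over the same 14052 genes. Both libraries have the same donor identifier, so this spread may be technical.

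**Figure D4:**
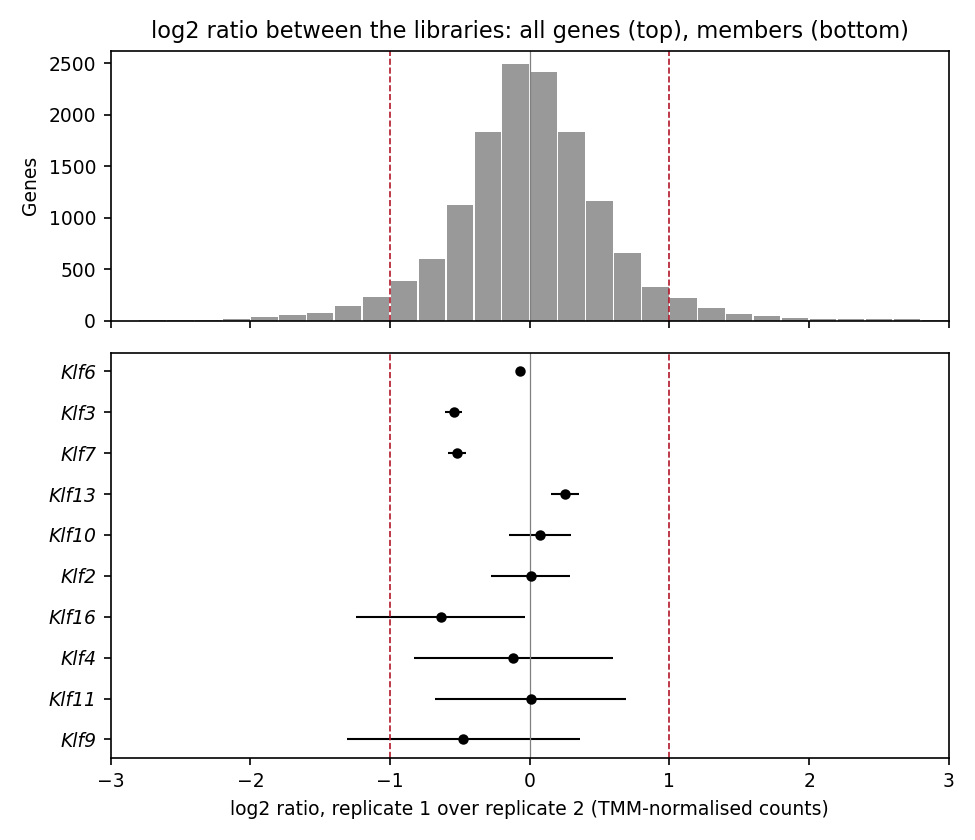
The top panel counts all 14052 genes by log2 ratio of TMM-normalised counts, replicate 1 over replicate 2, and the bottom panel gives each member with its 95% counting interval, with dashed lines at 2-fold. All 10 member points lie between the dashed lines, and Klf3, Klf7 and Klf16 lie farthest to the left.

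Most of the rest of the family was listed at or near 0. Of 16 other KLF and SP genes, 4 reached 1 TPM in both libraries, against 39.9% of nuclear protein-coding genes, and all 4 are SP genes. With the deposited posterior mean TPM the count was 6, with Klf8 (1.10 and 1.69 TPM) and Klf12 (1.31 and 1.86 TPM) added, and with the second quantifier it was 3. Sp3 had 13.9 TPM in replicate 1 and 10.9 in replicate 2, and Sp1, the ubiquitous GC-box factor, had 10.6 and 9.18 TPM. Sp2 had 2.58 and 2.08 TPM and Sp4 1.17 and 1.70 TPM. Klf8, of the CtBP branch, had 0.460 and 0.640 TPM. Klf14, Klf17, Sp5, Sp7, Sp8, Sp9 and Klf12 had 0 expected counts in both libraries. Klf12 was not the only one of these with counts in the second quantifier. Sp8 had 41 and 29 estimated counts there in replicates 1 and 2, and Sp9 had 29.6 and 56.9. Sp7 had 2.68 (2.60 TPM) and Klf17 had 2, both in replicate 2 only, and Klf14 and Sp5 had none. At Klf12, 3 counts correspond to 0.0725 TPM in replicate 1 and 0.0813 in replicate 2, but its deposited intervals reach 3.54 and 5.13 TPM, so the counts alone set no limit on its level. For Klf12 the second quantifier gave 1.81 and 4.11 TPM, all of it on Klf12-203, a noncoding transcript of which 61.2% of the 31-base words occur in other genes. Klf1, Klf5, Klf15 and Sp6 had at most 8 expected counts in a library.

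Genes that act with or on the family were widely present. Of 12 corepressors and coactivators, 12 were at 1 TPM or more in both libraries and 6 at 10 TPM or more. The shares over all nuclear protein-coding genes were 39.9% at 1 TPM and 14.8% at 10 TPM. The deacetylase Hdac1 had 35.3 TPM in replicate 1 and 29.8 in replicate 2, the acetyltransferase Ep300 39.69 and 20.97 TPM, and the Klf3 partner Ctbp1 23.7 and 15.6 TPM. The ERK5 and MEF2 route induces Klf2 and Klf4 in endothelial cells. Of 10 genes listed for this route, 9 reached 1 TPM in both libraries, against the same 39.9%. The MEF2 factors led this list, with Mef2a at 46.1 and 50.6 TPM, Mef2c at 18.6 and 14.1 TPM and Mef2d at 15.9 and 13.5 TPM. Hdac7, a class II deacetylase that binds MEF2 factors, had 1.61 TPM in replicate 1 and 0.900 in replicate 2.

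Of 8 genes of the TGF-beta route to Klf10 and Klf11, 7 reached 1 TPM in both libraries, against 39.9% of nuclear protein-coding genes. The ligand Tgfb1 had 80.5 TPM in replicate 1 and 54.6 in replicate 2, its receptor Tgfbr2 had 29.0 and 17.8 TPM, and its receptor Tgfbr1 had 20.5 and 18.8 TPM. The inhibitory Smad7 had 0.25 and 0.2 TPM. Of 10 genes in a list of ubiquitin ligases, the glucocorticoid receptor and its targets, 8 reached 1 TPM in both libraries. The share to set beside this count is the same 39.9%. The receptor Nr3c1 had 40.7 and 20.4 TPM, the ligase Wwp1 30.7 and 27.7 TPM and the receptor's target Tsc22d3 20.2 and 11.1 TPM. The muscle ligase Fbxo32 had 0.0600 and 0.0500 TPM, and the receptor's target Fkbp5 had 1.25 and 0.630 TPM. These lists describe levels and were chosen with results of these libraries known.

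The 3′ untranslated regions of the members were counted for ATTTA, the core of AU-rich elements that mark unstable messages. At least 1 was found in 10 of 10, against 69.6% of 8221 other genes at 1 TPM or more. The highest coding transcript of each gene was used. Klf7 held 18, or 2.87 per kb, Klf10 4 (2.68 per kb), Klf9 8 (2.48 per kb) and Klf6 7 (2.25 per kb). Klf13, with 3 in a region of 5157 bases, had the lowest density at 0.582 per kb. The median over the other genes was 1.38 per kb, and their median region was 1066 bases long, shorter than that of 8 of the members. Klf2 (1.36 per kb) and Klf4 (1.02 per kb) lay below that median density together with Klf13, and the remaining members lay above it. By density the members ran from percentile 33.9 (Klf13) to 77.4 (Klf7) of the other genes.

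The labelled cell type was checked with markers. All 10 macrophage markers reached 1 TPM in both libraries and summed to 4427 TPM in replicate 1 and 2658 in replicate 2, led by Lyz2. Of 6 neutrophil, 5 lymphoid, 4 epithelial, 4 erythroid and 4 fibroblast markers, 0 reached 1 TPM in both, and Elane, Cd3e, Krt8, Krt18 and Epcam were among those with 0 counts in both libraries. The neutrophil list had the highest sum among these, with 1.79 TPM in replicate 1 and 0.6 in replicate 2. Of 5 endothelial markers, 2 did, Vwf (15.9 and 13.3 TPM) and Kdr (13.7 and 4.14 TPM), while Pecam1 had 1.48 and 0.530 TPM, Cdh5 0.460 and 0.0900 TPM and Tek 0.0200 and 0.0500 TPM. The endothelial list summed to 31.6 TPM in replicate 1 and 18.1 in replicate 2. As Klf2 and Klf4 are also expressed in endothelium, its part in their levels was not tested. On annotated genes the expected counts summed to 23630328 in replicate 1 and 15687634 in replicate 2.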

How the data were processed

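Per the labels, the libraries are ribosome-depleted RNA-seq of nuclear RNA, and per the file headers each has RSEM-format gene and transcript tables and a kallisto-format transcript table, called the second quantifier. GENCODE M21 on mm10 was the annotation, per the deposited readme files. Aligner, versions and strand setting: not given in the sources used here. The authors deposited expected counts, which are estimated and need not be whole, and TPM, which divides them by an effective length and scales to a fixed total. The authors also deposited a posterior mean TPM, signal columns that bound a TPM interval of unstated level, and the percent of a gene's TPM on each transcript.

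Members were matched by symbol through the M21 annotation. The members and lists were chosen with earlier results of these data known. All 10 members are named, of the other KLF and SP genes those at 1 TPM or more with the rest by symbol, and of each route list the 3 highest by mean TPM and those under 1 TPM in a library; genes overlapping a member are also named. With 1 group of 2 libraries no test between conditions exists, so values, means and SDs are given. Rows that are not genes of the M21 annotation, 1.19% (replicate 1) and 0.215% (replicate 2) of expected counts, were left out. Ratios used rounded expected counts, edgeR 4.0.16 TMM factors and a prior count of 0.5, with DESeq2 1.42.0 size factors as an alternative (R 4.3.3), and this step was tested on simulated data. Counting intervals at 95% use a normal approximation to Poisson error for log2 ratios and Wilson intervals for shares, and a count of 0 allows 3 counts. Depth was 23630328 and 15687634 expected counts in replicates 1 and 2. Words of 31 bases come from the M21 transcripts and promoters from RefSeq. The planned comparison of proteins was not made here, and the values of some marker genes are not reported here. The remaining work was done in Python 3.11.15 with pandas 2.3.3, numpy 2.4.6 and matplotlib 3.10.9.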

Additional observations from a re-analysis of the deposited data

How the results depend on the processing

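The count of members at 100 TPM, 1 in the report, became 2 (Klf6 and Klf3) when TPM was scaled to the sum of nuclear protein-coding genes and 4 with the second quantifier rescaled in that way. The counts at 1 and 10 TPM became 9 and 6 in both of these settings. Rescaling raised the TPM of all detected genes, so the shares given above for nuclear protein-coding genes do not apply to the rescaled counts. Their shares after rescaling were not computed. The count of members over 2-fold apart between replicates became 1 with rescaled TPM, where Klf4 reached a log2 ratio of -1.10, and was 0 under the other 5 alternatives. In replicate 2, Klf4-202 held 49.3% of the TPM of Klf4 from 2.57 expected counts. Over all genes 1208 of 14052 (8.6%) were over 2-fold apart, against 2235 of 14017 (15.9%) with deposited TPM. Of those 2235, 1977 were higher in replicate 1 and 258 in replicate 2. Other settings also changed which genes were counted. Without the filter on low counts 6354 of 21915 (29.0%) were over 2-fold apart. With the counts of the second quantifier 2636 of 22331 (11.8%) were. With rescaled TPM the split was 486 higher in replicate 1 and 987 in replicate 2. Of the 45 pairs of members, 40 kept their order with the second quantifier, 43 with the posterior mean and 44 with counts uncorrected for length. Leaving out either library left the counts at 1, 10 and 100 TPM at 6, 4 and 1 and kept 44 to 45 pairs in order. The count of other KLF and SP genes at 1 TPM, 4 in the report, became 3 with the second quantifier, 6 with it rescaled, 5 with rescaled TPM and 6 with the posterior mean. The cause of the differences between quantifiers was not tested. Klf4, Klf9, Klf11 and Klf16 rest on 22 to 44 expected counts, which limits their ratios. With 1 sample left, a ratio between replicates has no value, so it was not run without a replicate. No paired analysis was possible because the series holds 1 group.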
